A study of Xenopus laevis with 32 samples.

Results

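Oocytes of the frog *Xenopus laevis* were compared 90 minutes after the addition of progesterone (PG90) and before it (stage VI). Stage VI is the fully grown oocyte, held in prophase of the first meiotic division with an intact nucleus, the germinal vesicle. Extracts were run on sucrose gradients, and poly(A)-selected RNA was sequenced from free messenger ribonucleoprotein, monosome and polysome fractions. The comparison draws on 12 of the 32 libraries of the series, 6 from PG90 and 6 from stage VI, both without any other treatment named in the labels. The labels do not give the number of frogs behind a library, so p-values measure the spread between columns, which may be technical. They also do not say how intact germinal vesicles were checked at 90 minutes.

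The deposited tables give 2 columns per stage, with the suffixes x and y, and do not tie them to numbered libraries. All 6497 rows of the polysome share table and the 11765 names that the RNA level table lists once were used. The polysome share is the fraction of a gene's RNA found in polysomes, the strings of ribosomes on an RNA under translation. A change of share is given in log2 odds, the base-2 logarithm of share over 1 minus share, so that 1 unit is a doubling of the odds. The RNA level is a positive number of unstated unit, and its changes are log2 ratios. No sequencing depth can be read from either table.

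Progesterone releases the arrest of the oocyte without new transcription. It lowers cyclic AMP, lets stored messages such as that for the Mos kinase be polyadenylated and translated, and ends with activation of cyclin B and Cdk1 and breakdown of the germinal vesicle. Maturation is therefore a textbook case of control through the length of the poly(A) tail and the loading of ribosomes. In frog maturation, messages for ribosomal proteins are also known to be deadenylated and to leave the polysomes.

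Across genes, little separated PG90 from stage VI in polysome share. The median share was 0.299 in column x and 0.321 in column y at PG90, against 0.332 in x and 0.321 in y at stage VI. Only the x columns thus moved as a whole, with a median change of -0.21 in x and -0.02 in y. The changes spread over genes with an SD of 0.54 in x and 0.31 in y. Spearman's rho between the x and y changes was 0.087 across the 6497 genes, which are not independent replicates.

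With limma, fitted to the shares of all 5 stages, 0 of 6497 genes passed an adjusted p of 0.05 (0%), and the lowest adjusted p was 0.999993. At an unadjusted p under 0.05, 4 genes were higher (0.0616%) and 55 were lower (0.847%) at PG90. The shares in this fit were not centred, so the lower median of the PG90 column x entered these counts. The median standard error of a change was 0.41. Without a test, both PG90 columns lay above both stage VI columns for 501 genes (7.71%) and below both for 1368 genes (21.1%). After centring each column on its median these counts were 827 (12.7%) and 906 (13.9%). A change of at least 1 in x and in y was found upwards for 2 genes (0.0308%) and downwards for 3 genes (0.0462%).

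**Figure D1:**
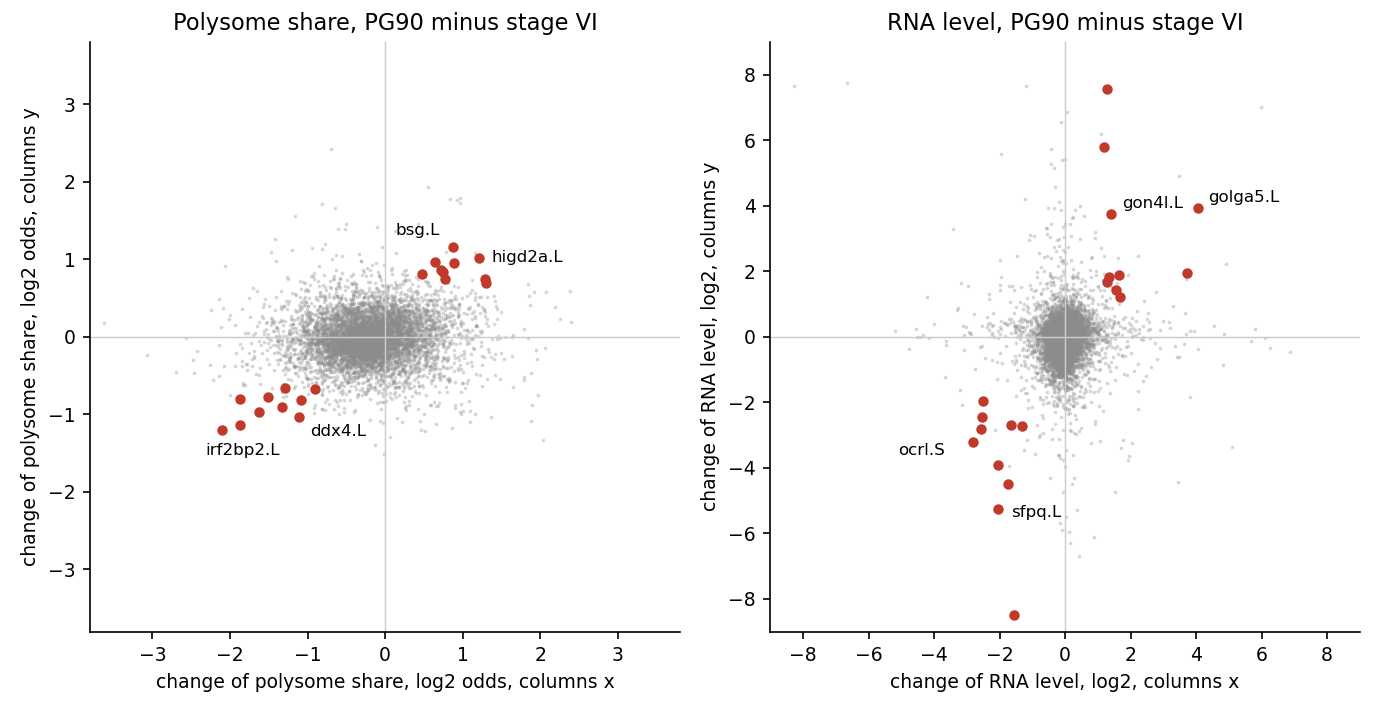
Each grey point is a gene, with its PG90 minus stage VI change in columns x on the horizontal axis and in columns y on the vertical axis, for polysome share (log2 odds, left) and RNA level (log2, right). Red points are the 10 highest and 10 lowest named genes of each measure, which agree in direction in x and y. The grey clouds show little slope, golga5.L lies at about 4 on both level axes, and many of the widest level changes lie along one axis.

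Upwards these were higd2a.L and a gene model without a symbol, and downwards irf2bp2.L, sh3bp5.L and ddx4.L. The polysome share of higd2a.L, which encodes a cytochrome c oxidase assembly factor, was 0.428 in x and 0.414 in y at PG90, against 0.245 and 0.258 at stage VI. Its change was 1.11 with a standard error of 0.64 and an adjusted p of 1.0 in limma. The columns of each stage lay close together. They did not overlap between stages, as the choice of named genes required. At meiosis I (MI) the share was 0.0876 in x and 0.353 in y, so the columns no longer agreed.

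For bsg.L, encoding the cell surface glycoprotein basigin, the share was 0.558 in x and 0.437 in y at PG90, against 0.407 and 0.258 at stage VI. The lower PG90 column stood just above the higher stage VI column. The same transcript had a share of 0.719 and 0.447 at MI, 0.692 and 0.511 in interkinesis oocytes, and 0.570 and 0.408 in oocytes at meiosis II (MII). Its homeolog bsg.S, from the other subgenome of this allotetraploid frog, had 0.543 in x and 0.356 in y at PG90, against 0.414 and 0.371 at stage VI. The S copy was thus higher in x only.

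Messages higher at PG90 and higher again at MI included marveld3.L and scoc-like.S. The tight junction protein gene marveld3.L had a share of 0.391 in x and 0.489 in y at PG90, against 0.280 and 0.346 at stage VI. It had 0.668 and 0.693 at MI and 0.545 and 0.845 at MII. For scoc-like.S, named after a short coiled-coil protein of the Golgi, the share was 0.405 and 0.547 at PG90, against 0.305 and 0.383 at stage VI, and 0.567 and 0.623 at MI. PG90 values of both genes thus lay between those of stage VI and MI in each column set. The PG90 to stage VI and MI to stage VI differences share their stage VI columns.

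The cell cycle gene gtse1.S, whose product binds microtubules, showed the same order up to MI. Its share was 0.376 in x and 0.323 in y at PG90, against 0.198 and 0.221 at stage VI, and 0.459 and 0.508 at MI. The copy gtse1.L had 0.390 and 0.321 at PG90, against 0.362 and 0.296 at stage VI, a smaller difference on the same side. Of the other genes in this group, pttg1ip.1.L, for a protein that binds securin, had 0.504 and 0.387 at PG90, against 0.355 and 0.246 at stage VI. It was back at 0.351 and 0.252 at MI.

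The remaining names of the 10 highest were agtrap.L, spa17.L, cramp1l-like.L and rbm33.S. For agtrap.L, which encodes a protein associated with the angiotensin II receptor, the share was 0.415 and 0.406 at PG90, against 0.295 and 0.289 at stage VI. The columns within a stage were almost equal, and the change was 0.76 with a standard error of 0.36. The sperm surface protein gene spa17.L had 0.517 and 0.445 at PG90, against 0.303 and 0.332 at stage VI. For rbm33.S, an RNA-binding protein gene with a low share, values were 0.125 and 0.191 at PG90, against 0.0934 and 0.118 at stage VI, so the gap between stages was narrow. With cramp1l-like.L, the changes of the 10 ran from 0.64 to 1.11, and 0 passed the threshold.

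At the low end of the ranking, the corepressor gene irf2bp2.L had a polysome share of 0.194 in x and 0.174 in y at PG90, against 0.509 and 0.325 at stage VI. Its limma change was -1.65 with a standard error of 0.45 and an adjusted p of 1.0. Both PG90 columns were below both stage VI columns, as the ranking required, and by a wide gap. At MI the share was 0.380 and 0.322, above both PG90 columns again.

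Several other low shares persisted. The share of sh3bp5.L, encoding an exchange factor for the Rab11 GTPase, was 0.167 and 0.312 at PG90, against 0.423 and 0.4996 at stage VI, and 0.140 and 0.136 at MII. For tbc1d12.S, from a family of Rab GTPase-activating proteins, it was 0.175 and 0.190 at PG90, against 0.395 and 0.315 at stage VI, and 0.159 and 0.181 at MI. The tbc1d12.S change of -1.30 had a standard error of 0.32, the lowest unadjusted p of the table. Its copy tbc1d12.L had 0.389 and 0.385 at PG90, against 0.510 and 0.361 at stage VI, lower in x and higher in y.

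A germline message stood among the 10 lowest. The gene ddx4.L encodes the Vasa RNA helicase, a marker of germ plasm. Its polysome share was 0.383 in x and 0.337 in y at PG90, against 0.572 and 0.510 at stage VI, with a change of -1.07 and a standard error of 0.36. At MI it was 0.206 and 0.297, and at MII 0.220 and 0.198. The copy ddx4.S had 0.547 and 0.488 at PG90, against 0.631 and 0.557 at stage VI. Both copies were lower at PG90 in both column sets without overlap, the S copy by less. The ranking required this of ddx4.L only.

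Nuclear and nucleolar functions were the labels of 3 further names. The share of nol6.L, for a factor of ribosomal small-subunit processing, was 0.157 and 0.219 at PG90, against 0.284 and 0.331 at stage VI. For ints12.S, a subunit of the Integrator complex, it was 0.216 and 0.203 at PG90, against 0.402 and 0.287 at stage VI. For rbm48.S, a minor spliceosome factor, it was 0.211 and 0.258 at PG90, against 0.402 and 0.393 at stage VI. In each of the 3 the columns did not overlap, as the ranking required. The last names were ndufb9.L, a complex I subunit with 0.246 and 0.347 at PG90, against 0.545 and 0.480 at stage VI, tmc6-like.L and igfbp5.L. Changes of the 10 ran from -1.65 to -0.79, and 0 passed the threshold. Relative to the median gene, the mean of the x and y changes ran from -1.53 to -0.68 in these 10 and from 0.76 to 1.23 in the 10 highest.

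**Figure D2:**
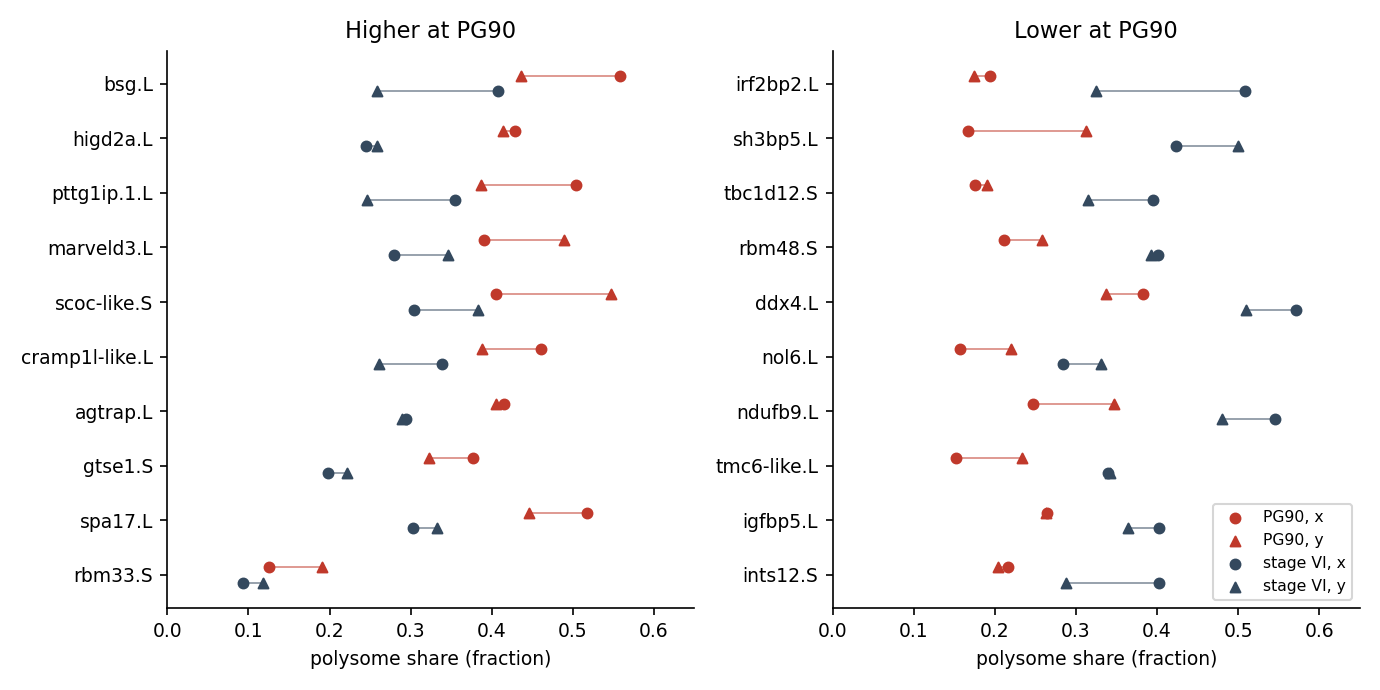
Polysome share (fraction, horizontal axis) of the 10 highest (left) and 10 lowest (right) named genes, with PG90 in red above stage VI in dark blue. Circles are columns x, triangles columns y, and a line joins the columns of a stage. No red pair reaches the dark blue pair of its gene, as the choice of genes required, with wide gaps for irf2bp2.L, tbc1d12.S and higd2a.L.

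Of the 6 other homeologs of these 20 genes that the share table lists, 3 lay on the same side of the median change in both column sets, and 0 lay on the opposite side in both. Of all genes, 27.3% lay on each side in both sets. The RNA levels of the named genes took no common side. Of those low in share, tbc1d12.S, rbm48.S, ddx4.L and ints12.S were above the median level change in both sets. Below it in both was ndufb9.L, while irf2bp2.L, sh3bp5.L, nol6.L and igfbp5.L lay on different sides in x and y. Of those high in share, bsg.L and marveld3.L were above in both and higd2a.L was below in both. The sides differed for pttg1ip.1.L, agtrap.L and spa17.L. For ints12.S the RNA level was 16.2 in x and 5.01 in y at PG90, against 14.2 and 2.44 at stage VI. For higd2a.L it was 176 and 22.4 at PG90, against 180 and 38.4 at stage VI. A low share stood beside a higher level for ints12.S, and a high share beside a level lower mostly in y for higd2a.L. For marveld3.L, with a high share, the level was 285 and 90.7 at PG90, against 223 and 85.03 at stage VI. For ndufb9.L, with a low share, it was 103 and 7.20 at PG90, against 111 and 8.03 at stage VI, so that share and level lay on the same side in these 2 genes.

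The maturation list holds the linker histone gene h1foo besides cyclins and kinases. Its changes of share at 90 minutes agreed in x and y about as often as those of all genes. Of the 40 symbols of this list, 20 were in the share table, in 34 rows. Relative to the median gene of each column set, 10 rows were higher in both sets and 9 were lower in both. Of all 6497 rows, 27.3% lay on each side in both sets. Columns did not overlap for 2 rows that were higher and 6 that were lower, against 7.71% and 21.1% of all genes, and 0 rows were called. Changes in the 34 rows ran from -0.83 to 1.19 in x and from -0.31 to 0.42 in y.

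The 2 rows without overlap on the high side were the copies of h1foo, the oocyte linker histone that packs chromatin until the embryo replaces it. The share of h1foo.L was 0.414 in x and 0.378 in y at PG90, against 0.296 and 0.313 at stage VI. For h1foo.S it was 0.489 and 0.510 at PG90, against 0.356 and 0.467 at stage VI. At MI h1foo.L had 0.5996 and 0.676, and at MII 0.636 and 0.889. The limma changes at PG90 were 0.59 for h1foo.L and 0.52 for h1foo.S, with standard errors of 0.67 and 0.72.

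Messages of the Mos and Cdk1 cascade gave no call. For mos.L, the kinase that starts the MAP kinase cascade, the share was 0.342 in x and 0.286 in y at PG90, against 0.381 and 0.293 at stage VI. For the cyclin gene ccnb1.2.L it was 0.190 and 0.236 at PG90, against 0.257 and 0.227 at stage VI. The columns of the 2 stages interleaved for both genes. Rows lower without overlap were btg4.L, ccna1.L, ccna2.L, ccnb2.S, ccne1.S and cdk1.L. After centring of the columns, btg4.L, ccne1.S and cdk1.L overlapped. Gaps were small, as for cdk1.L with uncentred shares of 0.374 and 0.341 at PG90, against 0.419 and 0.383 at stage VI.

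The Polo-like kinase copies differed between the column sets. For plk1.L the share was 0.511 in x and 0.300 in y at PG90, against 0.313 and 0.300 at stage VI. The copy plk1.S had 0.501 and 0.254 at PG90, against 0.395 and 0.294 at stage VI. Both copies were higher in x, while in y one was equal and the other lower. For aurka.L, an Aurora kinase, the share was 0.592 and 0.370 at PG90, against 0.532 and 0.319 at stage VI, higher within each set but with overlapping columns. The copy aurka.S had 0.390 and 0.390 at PG90, against 0.497 and 0.376 at stage VI, lower in x and higher in y.

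**Figure D3:**
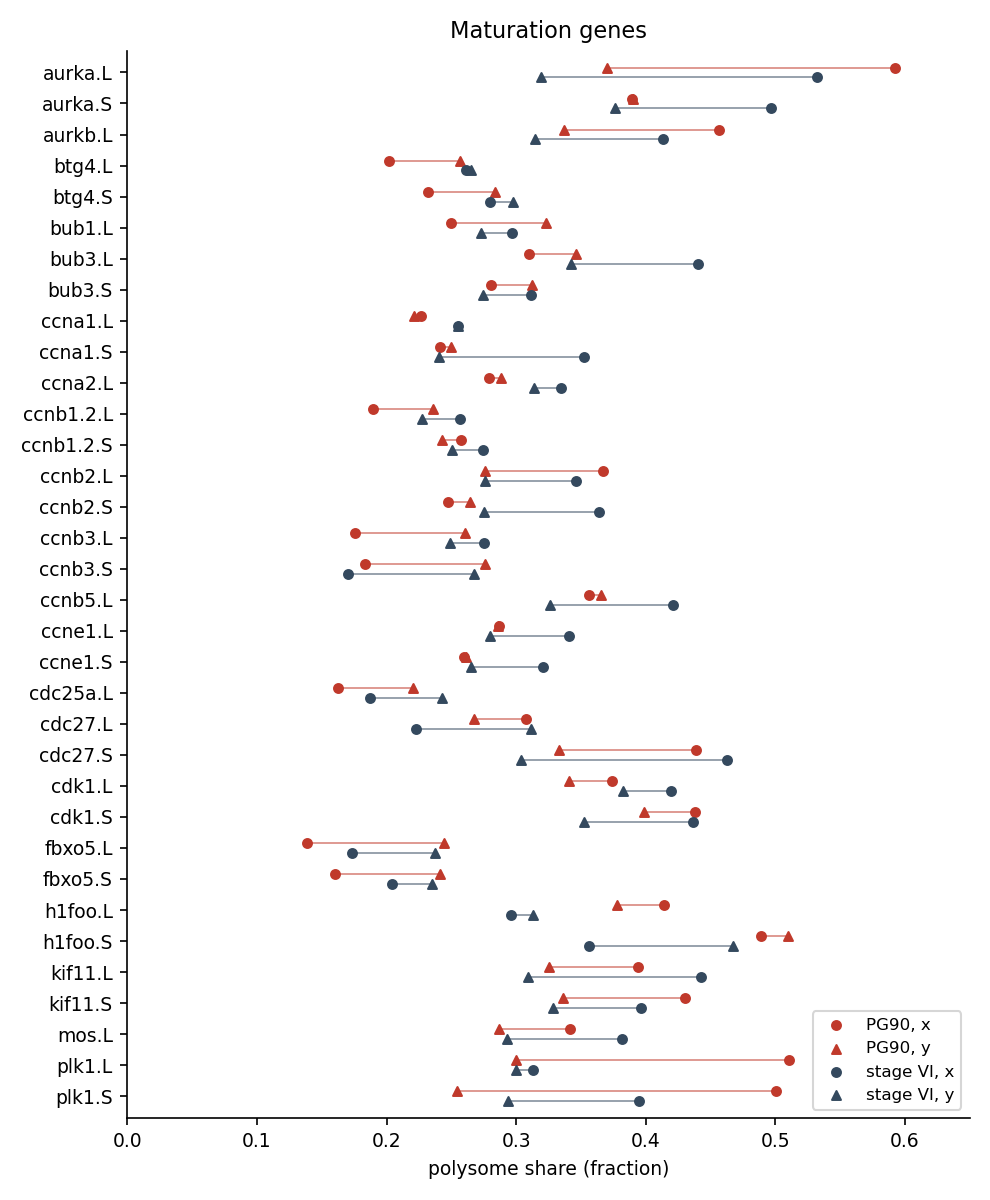
Polysome share (fraction, horizontal axis) of the 34 rows of the maturation list, PG90 in red above stage VI in dark blue, circles for columns x and triangles for columns y. The pairs overlap for most rows, and the red pairs of h1foo.L and h1foo.S lie to the right of the dark blue ones.

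Components of the progesterone response itself, from G proteins to the kinases that act before Cdk1, filled 18 rows. Of these, 3 were above the median change in both column sets and 7 below, against 27.3% of all genes each way. Columns did not overlap for 0 rows on the high side and 6 on the low side, against 7.71% and 21.1% of all genes. The 6 were gnaq.L, gnaq.S, gnai1.L and gnb1.S, which encode subunits of heterotrimeric G proteins, the kinase gene gsk3b.S and the growth factor receptor gene igf1r.S. The share of gnaq.S was 0.240 in x and 0.310 in y at PG90, against 0.347 and 0.335 at stage VI. For gnb1.S it was 0.339 and 0.277 at PG90, against 0.357 and 0.382 at stage VI. The difference was mostly in x for gnaq.S and mostly in y for gnb1.S. After centring of the columns, gnb1.S overlapped.

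Regulators of poly(A) tails and stored messages took 37 rows. Of these, 7 were above the median change in both sets and 12 below, against 27.3% of all genes each way. Columns did not overlap for 3 rows on the high side and 13 on the low side, against 7.71% and 21.1% of all genes. The high rows were both copies of parn, the deadenylase that shortens tails in the oocyte, and cnot2.S of the CCR4-NOT complex. For parn.L the share was 0.478 in x and 0.427 in y at PG90, against 0.399 and 0.374 at stage VI. For parn.S it was 0.382 and 0.418 at PG90, against 0.370 and 0.352 at stage VI. The difference of parn.S in x was 0.08 log2 odds.

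Low rows of the same list included messages for RNA-binding repressors and the poly(A)-binding protein, both stau1 copies and dazl.L, which activates translation. The share of dazl.L was 0.400 in x and 0.485 in y at PG90, against 0.604 and 0.493 at stage VI, a difference mostly in x. Columns overlapped for patl1.L, pum2.L, pum2.S and zfp36l2.S of this list. For ddx6.L, the helicase of repressed messenger ribonucleoprotein, the share was 0.262 and 0.357 at PG90, against 0.401 and 0.431 at stage VI. For pabpc1.L, the cytoplasmic poly(A)-binding protein, it was 0.307 and 0.288 at PG90, against 0.396 and 0.338 at stage VI, and pabpc1.S also lay lower, without overlap before centring of the columns and with overlap after it. For zfp36l2.L, whose product binds AU-rich elements, it was 0.460 and 0.394 at PG90, against 0.579 and 0.494 at stage VI. Each of ddx6.L, pabpc1.L and zfp36l2.L was lower in x and in y. A gene with discordant copies was papd4. For papd4.S, the copy of the cytoplasmic poly(A) polymerase gene with the larger difference, the share was 0.192 and 0.287 at PG90, against 0.418 and 0.318 at stage VI, a difference mostly in x. The copy papd4.L had 0.425 and 0.282 at PG90, against 0.413 and 0.310 at stage VI.

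Messages for ribosomal proteins leaned to lower shares at 90 minutes. Of the 29 rows of the large subunit, 17 were below the median change in both column sets and 3 above, against 27.3% of all genes each way. Their median change relative to the median gene was -0.18 in x and -0.22 in y. The 14 rows of the small subunit gave 6 below and 1 above, with medians of -0.06 in x and -0.35 in y. Columns did not overlap for 17 of the 43 rows on the low side and for 0 on the high side, against 21.1% and 7.71% of all genes. Lower ribosomal shares in this series were known when the list was drawn up, so the count is no independent evidence of its direction.

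At the low end, rps25.S had a share of 0.209 in x and 0.409 in y at PG90, against 0.482 and 0.516 at stage VI. For rpl36.L it was 0.302 and 0.418 at PG90, against 0.491 and 0.497 at stage VI. Both lay below stage VI in both sets, by more in x. At the other end, rplp1.L had 0.480 and 0.341 at PG90, against 0.398 and 0.306 at stage VI. The column sets disagreed for rps23.S, with 0.669 and 0.376 at PG90, against 0.460 and 0.484 at stage VI. In all, 0 of the 43 rows passed the threshold of limma.

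Other parts of the translation machinery showed no common direction in share. Of all genes, 27.3% lay on each side of the median change in both sets. Initiation factors gave 12 of 41 rows above the median change in both sets and 11 below. Among them eif2d.S, a factor for non-canonical initiation and recycling, had 0.475 and 0.393 at PG90, against 0.202 and 0.288 at stage VI. The guanine exchange subunit gene eif2b5.S had 0.262 and 0.257 at PG90, against 0.397 and 0.332 at stage VI. Genes of the mitochondrial ribosome gave 4 above and 3 below of 20 rows, and nuclear genes of the respiratory chain 4 above and 9 below of 31.

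Counts of the remaining lists stand against 27.3% of all genes on each side in both sets. The 8 histone rows gave 6 above the median change in both sets and 0 below, 2 of the 6 being the h1foo copies. Kinesins and tubulins, which include the motors and tracks of the spindle, gave 13 above and 4 below of 29 rows. Their columns did not overlap for 7 rows on the high side and 3 on the low side, against 7.71% and 21.1% of all genes. The highest by mean change, kif3b-like.L, had a share of 0.290 and 0.334 at PG90, against 0.199 and 0.248 at stage VI. The lowest, tuba1c.L, had 0.134 and 0.386 at PG90, against 0.422 and 0.331 at stage VI, lower in x only. Chaperones gave 10 above and 13 below of 53. Among them hspa5.S, the endoplasmic reticulum chaperone BiP, had 0.537 and 0.402 at PG90, against 0.304 and 0.319 at stage VI. The chaperonin subunit gene cct6a.S had 0.263 and 0.252 at PG90, against 0.375 and 0.346 at stage VI. Replication factors gave 6 above and 7 below of 19. The initiation factor gene mcm10.L had 0.407 and 0.332 at PG90, against 0.248 and 0.288 at stage VI. The polymerase epsilon subunit gene pole3.L had 0.406 and 0.405 at PG90, against 0.496 and 0.563 at stage VI. Columns did not overlap for these 4 chaperone and replication genes, named from the ends of their lists, and 0 of them passed the threshold. Over the lists, columns did not overlap for 6 higher and 8 lower of 53 chaperone rows. For replication factors these counts were 3 and 8 of 19 rows, against 7.71% and 21.1% of all genes.

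RNA levels were almost equal at the 2 stages for the typical gene. The median level was 44.1 in x and 9.52 in y at PG90, against 44.7 in x and 9.53 in y at stage VI. Changes in x and y were only loosely related across the 11765 names, with a Spearman's rho of 0.136. In limma, with the column set as a term, 1 name passed an adjusted p of 0.05 (0.00850%). At an unadjusted p under 0.05, 191 names were higher (1.62%) and 178 lower (1.51%). A difference of at least 2-fold in both sets was found for 36 names on the high side (0.306%) and 31 on the low side (0.263%). Since the RNA was selected by its poly(A) tail, more RNA and longer tails cannot be told apart in these levels, and neither can fewer cells of a type and less RNA per cell.

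The name called was golga5.L, which encodes the Golgi coiled-coil protein golgin-84. Its level was 1116 in x and 272 in y at PG90, against 66.8 in x and 17.96 in y at stage VI. This is a ratio of 16.7 in x and 15.2 in y, a rise by 4.004 on the log2 scale with a standard error of 0.17 and an adjusted p of 0.00146 in limma. Later levels were near those of stage VI, with 63.2 and 13.7 at MI, 66.4 and 15.6 in interkinesis oocytes, and 56.8 and 16.1 in MII oocytes. PG90 thus stood apart from every other stage in both column sets. Without the stage VI column y the adjusted p was 0.0504, and with the 4 columns of the 2 stages alone 0 names were called.

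The copy golga5.S showed no such peak, with 58.4 and 25.1 at PG90, against 56.0 and 21.2 at stage VI. The polysome share of golga5.L was 0.292 and 0.278 at PG90, against 0.368 and 0.264 at stage VI, so the share did not peak with the level. In stage VI PAS-seq, which counts reads at poly(A) sites, golga5.L had 26 reads at 4 sites. The site with the most reads, 12, lay on chromosome 8L at base 65079048 in the coordinates of the deposited table, whose build is not given in the sources used here.

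Chosen after values were seen, golga5.S and eif3c.L are given for comparison. Besides golga5.L, 4 names were at least 2-fold higher at PG90 than at each of the other 4 stages in both sets, among them eif3c.L and gon4l.L. The level of eif3c.L, a core subunit of initiation factor eIF3, was 74.5 in x and 10.4 in y at PG90, against 33.4 and 3.09 at stage VI, and 33.9 and 3.84 at MI. Its change was 1.46 with a standard error of 0.19 and an adjusted p of 0.334. For gon4l.L, a nuclear regulator of transcription, the level was 114 and 38.2 at PG90, against 43.0 and 2.83 at stage VI, and 43.3 and 3.62 at MI. This name entered the ranking through its PG90 levels alone. The gene model LOC108718775, which has no symbol in the files, had 175 and 208 at PG90, against 2.77 and 1.62 at stage VI, with an adjusted p of 0.0775. At MI it was back at 5.24 and 1.26.

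Of the 36 high names, 12 were also 2-fold above MI in both sets. The kinase gene nek1.L was not among these 12. Its level was 12342 in x and 2637 in y at PG90, against 4911 and 745 at stage VI, and 7193 and 866 at MI. In y the MI level was thus near that of stage VI. Its polysome share was lower, 0.197 and 0.283 at PG90, against 0.339 and 0.346 at stage VI. Other names jumped between columns of the same stages without order. For smad7.L, an inhibitor of TGF-beta signalling, the level was 5694 and 3422 at PG90, against 2364 and 17.9 at stage VI, and 58.8 and 8376 at interkinesis. The standard error of its change was 2.85.

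On the low side, ocrl.S, encoding a phosphoinositide phosphatase of endosomes and the Golgi, had 12.5 in x and 6.93 in y at PG90, against 87.3 and 64.3 at stage VI. The change was -2.997 with a standard error of 0.30 and an adjusted p of 0.126. At MI it was 14.5 and 5.02, and at MII 11.6 and 5.14, so that stage VI was the stage that stood apart. Levels of the copy ocrl.L were 24.6 and 4.72 at PG90, against 26.1 and 5.12 at stage VI. In 5 names, stage VI was at least 2-fold above each of the other stages in both sets, and those with a symbol were ocrl.S, pigc.S, vti1a.L and zfp91.S.

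The genes pigc.S and vti1a.L serve membranes, with pigc in the synthesis of glycosylphosphatidylinositol anchors and vti1a as a SNARE of endosome traffic. For pigc.S the level was 26.9 and 3.64 at PG90, against 89.7 and 81.3 at stage VI. For vti1a.L it was 29.9 and 1.62 at PG90, against 94.0 and 10.5 at stage VI. The zinc finger gene zfp91.S had 29.8 and 7.95 at PG90, against 168 and 30.7 at stage VI. All 3 were lower within both column sets, as the ranking required. In limma their adjusted p-values were 0.998 for pigc.S and vti1a.L and 0.905 for zfp91.S.

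Low values at PG90 that returned at MI were fewer, with 4 of the 31 names also 2-fold below MI. The splicing factor gene sfpq.L had 166 in x and 4.28 in y at PG90, against 680 and 163 at stage VI, and 652 and 188 at MI. At interkinesis it was 183 and 3.40, and at MII 164 and 221, so the y columns alternated between high and low. The Polycomb methyltransferase gene ezh2.L was not among these 4 and was chosen after its values were seen. It had 54.6 and 13.5 at PG90, against 129 and 39.7 at stage VI, and 108 and 33.8 at MI. Its change was -1.39 with a standard error of 0.18 and an adjusted p of 0.334. The copy ezh2.S had 56.7 and 16.1 at PG90, against 58.5 and 16.2 at stage VI.

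Further names among the 10 lowest were riok1.L, atp6v1c1.S, ube2j2.L, spag1.S and mkl1.S. The kinase gene riok1.L, which acts in ribosome maturation, had 30.8 and 8.04 at PG90, against 182 and 56.1 at stage VI, and 31.9 and 132 at MI. The proton pump subunit gene atp6v1c1.S had 20.8 and 3.59 at PG90, against 121 and 19.7 at stage VI. For ube2j2.L, a ubiquitin-conjugating enzyme of the endoplasmic reticulum, it was 36.8 and 5.25 at PG90, against 153 and 78.5 at stage VI. Each was lower in both sets at 90 minutes, as the ranking required, and 0 passed the threshold. A name could enter this ranking through a high stage VI level alone, as riok1.L, atp6v1c1.S and ube2j2.L did. Of the 12 other homeologs listed for the named level genes, 7 lay on the same side of the median change in both sets and 0 on the opposite side in both. Of all names, 27.9% lay on each side in both sets. Small changes were counted too, as for golga5.S with 0.06 in x and 0.18 in y relative to the median name.

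**Figure D4:**
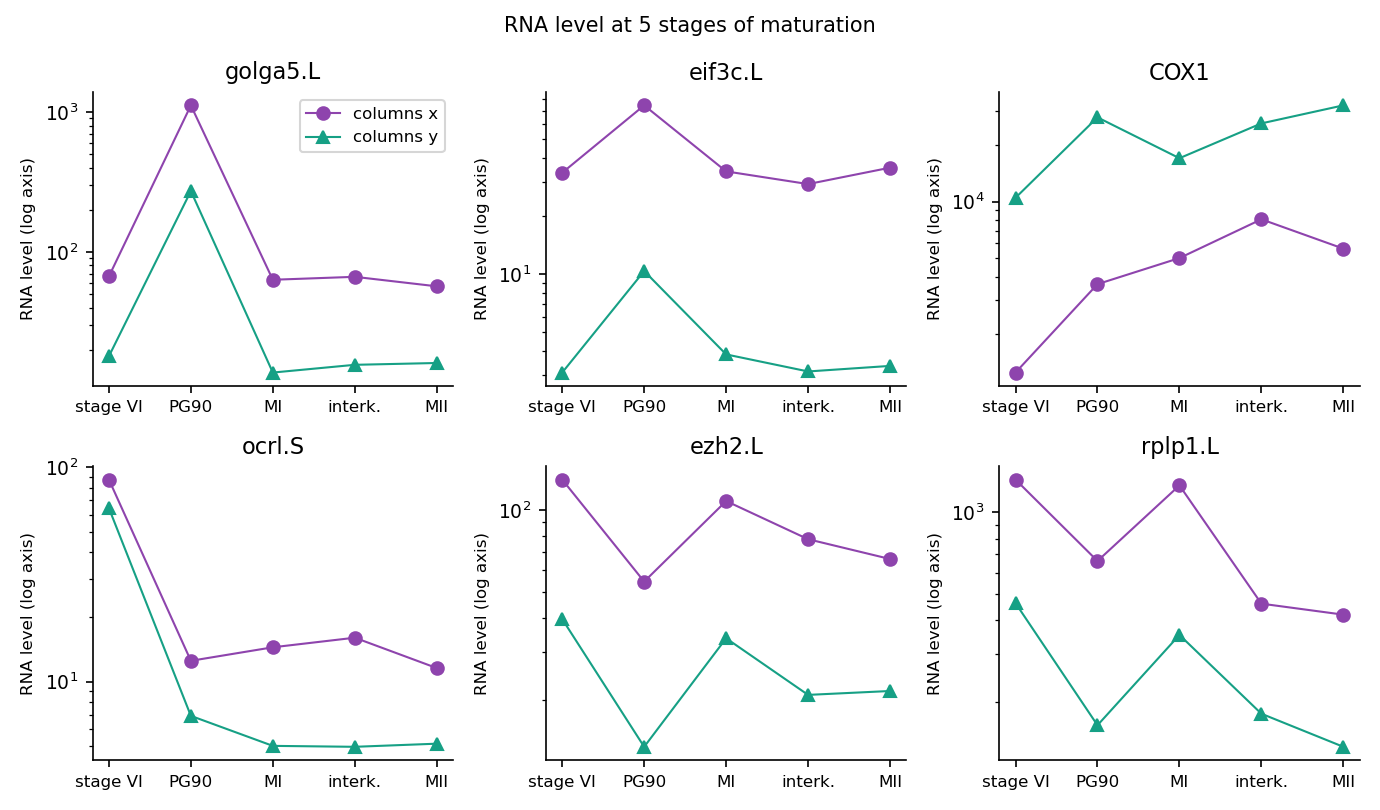
RNA level (unstated unit, log axis) at stage VI, PG90, MI, interkinesis and MII for 6 names, with circles for columns x and triangles for columns y. The level of golga5.L and eif3c.L is highest at PG90, that of ocrl.S highest at stage VI, and that of ezh2.L and rplp1.L is lower at PG90 than at stage VI and at MI in both column sets.

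Transcripts of the mitochondrial genome were higher at PG90. The list was formed after values were seen and holds 12 names, 11 messages of the respiratory chain and ATP synthase and the 12S ribosomal RNA. Of these, 11 were above the median change in both column sets and 0 below, against 27.9% of all names each way, and 9 were higher at an unadjusted p under 0.05, against 1.62% of all names. The median change relative to the median name was 0.79 in x and 1.35 in y. In limma, 0 of the 12 passed the adjusted threshold. The 12 names come from the same genome and were measured in the same columns. They are not independent observations, and the counts only describe them.

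The cytochrome c oxidase subunit message COX1 had a level of 3652 in x and 27894 in y at PG90, against 1243 and 10466 at stage VI. Its change was 1.496 with a standard error of 0.39. For the ATP synthase message ATP8 the level was 1487 and 32995 at PG90, against 736 and 11426 at stage VI. For the complex I message ND3 it was 608 and 18242 at PG90, against 300 and 6229 at stage VI. Each of these 3 exceeded its stage VI level by 2-fold or more in x and in y.

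The weakest members were ND6 and ND2. For ND6, the message from the other strand of the mitochondrial genome, the level was 156 in x and 1437 in y at PG90, against 156 and 1126 at stage VI. For ND2 it was 881 and 12374 at PG90, against 915 and 5769 at stage VI, higher in y only. Later levels also lay above stage VI, as for COX1 with 5019 and 16954 in MI oocytes and 8052 and 25922 in interkinesis oocytes. Since these messages had 0 rows in the share table, their ribosome loading could not be compared.

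Of 5 transfer RNA names, 3 were above the median change in both sets. The name tRNA-Ser alone made up 31.0% of the summed level in x and 73.3% in y at PG90, against 30.6% and 60.5% at stage VI. Without the transfer RNA names, mitochondrial transcripts made up 0.277% of the summed level in x and 9.02% in y at PG90, against 0.172% and 4.08% at stage VI. Their part was thus larger at PG90 in both sets, and the sets differed from each other by more than the stages did.

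Messages for ribosomal proteins had lower levels at PG90, by a small amount in x and more in y. Of the 63 names of the large subunit, 39 were below the median change in both sets and 0 above, against 27.9% of all names each way. Their median change relative to the median name was -0.14 in x and -0.74 in y. Of the 47 names of the small subunit, 33 were below in both sets and 1 above, with medians of -0.10 in x and -0.79 in y. Without the transfer RNA names, ribosomal protein messages made up 6.05% of the summed level in x and 2.95% in y at PG90, against 7.70% and 4.62% at stage VI.

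Both column sets were low for rplp1.L, which encodes a protein of the ribosomal stalk. Its level was 662 in x and 164 in y at PG90, against 1321 and 463 at stage VI. Its change was -1.23 with a standard error of 0.21. At MI it was 1258 and 353, near the stage VI values, and at interkinesis 461 and 181. For rplp0.L the sets disagreed, with 173 and 2.84 at PG90, against 137 and 22.4 at stage VI. The abundant rpl19.L had 5062 and 3968 at PG90, against 5168 and 3632 at stage VI. In all, 0 of the 110 names passed the adjusted threshold, and 8 were lower at an unadjusted p under 0.05, against 1.51% of all names.

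Relative to the median name, the median change of the 110 names from stage VI in columns x was -0.11 in PG90, -0.12 in MI, -0.39 in interkinesis and -0.63 in MII oocytes. In columns y it was -0.77 in PG90, -0.15 in MI, -0.88 in interkinesis and -1.43 in MII oocytes. The PG90 column y thus stood lower than the MI column y. All of these values share the stage VI columns.

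Nuclear genes of the respiratory chain were lower as well. Of 103 names, 74 were below the median change in both sets and 6 above, against 27.9% of all names each way, with medians of -0.26 in x and -0.63 in y. At an unadjusted p under 0.05, 11 were lower and 0 higher, against 1.51% and 1.62% of all names. Genes of the mitochondrial ribosome gave 45 below and 3 above of 79, with medians of -0.22 in x and -0.33 in y. These nuclear-encoded messages were thus lower in the same columns in which the messages of the mitochondrial genome were higher. As an example, mrps18a.L had 433 and 27.9 at PG90, against 694 and 49.1 at stage VI.

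Proteasome genes gave 25 below and 4 above of 54 names, and initiation factors 32 below and 14 above of 68. The eIF3 subunit gene eif3g.S had 1157 in x and 137 in y at PG90, against 2720 and 447 at stage VI, while its partner eif3c.L was higher in both sets, as given above. Solute carriers, a large group of membrane transporters, gave 34 below and 40 above of 127, and zinc finger genes 25 below and 49 above of 133. Solute carriers lay near the background of 27.9% on both sides.

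**Figure D5:**
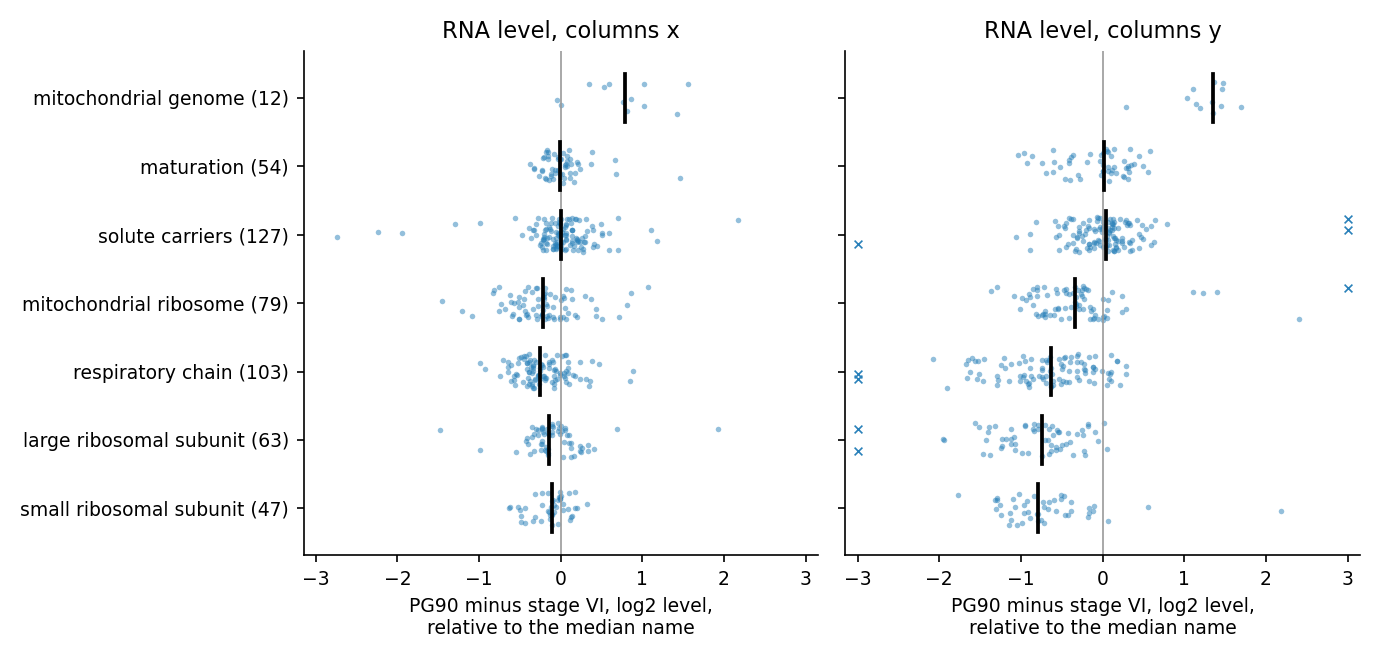
Change of RNA level from stage VI to PG90 relative to the median name (log2, horizontal axis), 1 point per name, for 7 gene lists with the number of names in brackets, columns x on the left and y on the right. Black bars are medians, and crosses at the edges mark names beyond 3 in either direction. The ribosomal and respiratory lists lie left of 0 in y and less so in x, with medians such as -0.14 in x and -0.74 in y for the large subunit, and the mitochondrial genome lies right of 0 in both.

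Gene length moved with these level changes. Of the 11765 names, 82.3% matched a gene of the RefSeq table for assembly Xenopus_laevis_v10.1, which gives genomic lengths. Names with a length were cut into 5 equal bins. The bin with the shortest genes had a median change relative to the median name of -0.05 in x and -0.20 in y, and the bin with the longest 0.04 in x and 0.12 in y. Of 107 ribosomal protein names with a length, 84 were in the shortest bin. Within that bin, the 194 names of the ribosomal, respiratory and mitochondrial ribosome lists had medians of -0.16 in x and -0.65 in y. The 1733 names outside these lists and the mitochondrial genome had medians of -0.04 in x and -0.17 in y. The part of length in the list results was not tested beyond this split.

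Genes of the maturation list had no common direction in level. Of 54 names, 15 were above the median change in both sets and 13 below, against 27.9% of all names each way. The list medians were -0.01 in x and 0.02 in y. For mos.L the level was 115 in x and 21.1 in y at PG90, against 107 and 19.3 at stage VI. The cyclin gene ccnb1.2.L had 985 and 305 at PG90, against 948 and 197 at stage VI. Of the aurka copies, aurka.S had 363 and 51.4 at PG90, against 229 and 39.2 at stage VI. Changes in the list ran from -0.38 to 1.46 in x and from -0.96 to 0.65 in y, and 0 passed the adjusted threshold.

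Among maturation genes with lower y levels, spdyc.L, which activates Cdk1 and Cdk2 in the oocyte, had 1010 and 59.7 at PG90, against 1132 and 103 at stage VI. The anaphase activator gene cdc20.S had 215 and 22.1 at PG90, against 215 and 40.0 at stage VI. Genes of progesterone signalling gave 18 above and 11 below of 51 names, and those of poly(A) control 19 above and 17 below of 78. Of all names, 27.9% lay on each side in both sets. For dazl.L, a germ plasm message that activates translation, the level was 110 and 30.1 at PG90, against 57.0 and 26.5 at stage VI. It was higher in both sets, by more in x. The helicase gene ddx6.L had 8094 and 7.94 at PG90, against 105 and 10.01 at stage VI, so its sets disagreed.

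Across the 3304 names in both tables, Spearman's rho between the change of share and the change of level was 0.000237 in x and -6.19e-05 in y. For the mean of the x and y changes it was -0.0854. These are descriptions across genes that share their columns. The rankings by share and by level had 0 named genes in common. Of 22 large subunit messages in both tables, 6 were below the median change in share and in level in both column sets, as were 4 of 12 of the small subunit and 5 of 25 of the respiratory chain. How many of all 3304 names lay there was not counted, so these counts only describe the lists.

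Homeologs, the L and S copies left by the ancient fusion of 2 genomes, gave a view of the same gene at separate loci. Of 1165 pairs in the share data, 59.2% lay on the same side of the median change, and of 2306 pairs in the level data, 65.2% did. Spearman's rho between copies was 0.264 for shares and 0.343 for levels. Copies within one column set were closer than across sets, with 0.308 in y for shares against 0.0812 for L in x with S in y. Between x and y, the share change of the same copy had a rho of 0.159 for L and 0.142 for S copies. Copies share sequence and may share reads, so pairs are not replicates.

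Agreement between the column sets was better for abundant messages. Among 826 genes in the highest quartile of stage VI level, the median difference between the x and y change of share was 0.27, and Spearman's rho was 0.174. In the lowest quartile these were 0.43 and 0.018. For levels, rho was 0.249 in the highest quartile of 2941 names and 0.021 in the lowest of 2942. The names gon4l.L, eif3c.L and LOC108718775, with stage VI levels below the median of both sets, stand in the range where the sets differed more. For vti1a.L only the PG90 levels were below those medians.

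Oocyte markers were largely listed, and markers of other cells of the ovary were few. Of 20 oocyte marker symbols 17 were in the level table, in 23 rows. Of these rows, 9 were above the median change in both sets and 4 below, against 27.9% of all names each way. Their medians were 0.23 in x and -0.25 in y. At an unadjusted p under 0.05 in limma, 4 were higher and 0 lower, against 1.62% and 1.51% of all names. Of the 23 rows, h1foo.S had 8238 in x and 3366 in y at PG90, against 7597 and 4228 at stage VI. It was thus higher in x and lower in y. Of 12 follicle cell symbols 1 was listed, cyp17a1.L with 49.9 and 13.5 at PG90, against 45.5 and 11.7 at stage VI. Of 11 blood symbols slc4a1.L was listed, with 101 and 12.4 at PG90, against 44.7 and 10.9 at stage VI. Of 7 connective tissue symbols vim.L was listed, with 31.1 and 4.85 at PG90, against 30.3 and 21.95 at stage VI. The other markers of these cells were not among the names listed once, and a part of such cells in the results above was not tested.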

How the data were processed

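Polysome shares, as a fraction of each gene's RNA, were used as the authors deposited them, and so were RNA levels, a score of unstated unit in which the headers name a sum. The ratio of PG90 over stage VI levels deposited by the authors equals the quotient of the deposited levels and was not used further. The count of PAS-seq reads per poly(A) site, deposited for stage VI with both lanes in 1 column, served for site positions only. Bowtie, Bowtie2, TopHat2 and Cufflinks are named in the submitters' processing notes, and the genome build and annotation are not given in the sources used here.

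Shares were turned into log2 odds and fitted with limma 3.58.1 in R 4.3.3 (trended prior, stage as the term, all 10 columns). Levels were turned into log2, centred on column medians and fitted with stage and column set as terms. The 178 names that the level table lists more than once were left out. Adjustment was by Benjamini-Hochberg over all rows, with a threshold of 0.05, and no filter on low values was applied. Changes called relative are those minus the median gene of the same column set. Scripts were tested on simulated data.

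The members and gene lists were chosen with earlier results of these data known. Named genes were the 10 highest and 10 lowest with a symbol, ranked by the smaller of the centred x and y changes. For shares the columns had not to overlap. For levels the PG90 or the stage VI value of each column set had to exceed the stage VI median of that set. A name could thus enter through the stage at which it was high. Through stage VI alone in both sets entered ocrl.S, riok1.L, atp6v1c1.S, ube2j2.L, pigc.S, vti1a.L and zfp91.S. In y alone this also held for sfpq.L. Through PG90 alone in both sets entered gon4l.L, one of the highest names. Every row of the maturation and progesterone signalling lists could also be named. From each other list up to 4 rows could be named, those with the highest and lowest centred mean change. Genes given besides these (golga5.S, eif3c.L, ezh2.L and ezh2.S, LOC108718775, examples within lists and the list of the mitochondrial genome) were chosen after their values were seen. Alternatives covered centring, quantile normalization, the columns fitted, the column set as a term, the transformation, a pseudocount of 1, a filter on low levels and leaving out each column. No depth is known for the columns, so no interval for counting error is given. L and S copies may share reads.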

Additional observations from a re-analysis of the deposited data

How the results depend on the processing

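No paired analysis was possible because no replicate number stands in the column names, which end in x or y. The column set, which the labels do not tie to replicates, was a term of the level fit. With it as a block in the share fit, 0 shares were called. In limma, 0 shares were called under every alternative run, while counts at an unadjusted p under 0.05 ran from 1 to 104 on the high side and from 6 to 181 on the low side. Names called by level were 0 with the columns of PG90 and stage VI alone, 2 with log2(level + 1), and 0 to 11 when 1 column was left out (11 without PG90 x, 6 without PG90 y, 5 without stage VI x, 0 without stage VI y). Without stage VI y, the adjusted p of golga5.L was 0.0504. The called name, golga5.L, did not change direction. Named genes were also checked by centring and by leaving out each column. For shares 259 checks moved and 706 stayed the same. For levels 399 moved, 1170 stayed the same and 1 was weaker. Moved means a shift larger than the SD of the x and y changes, scored for genes outside the rankings. Ranked genes counted as the same when their call and direction were kept. With 0 shares called, only a change of direction could have counted otherwise for ranked shares.

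Shares without overlap numbered 827 higher and 906 lower after centring, 142 and 414 with a mean change of at least 0.5, and 12 and 39 with at least 1. Shares that differed by at least 1 in both sets numbered 8 higher and 2 lower after centring. With a minimum of 0.5 in place of 1 they numbered 55 higher and 107 lower, and with centring as well 78 higher and 69 lower. Levels that differed in both sets numbered 96 higher and 128 lower at 1.5-fold. At 2-fold they numbered 15 higher and 20 lower among names whose stage VI level exceeded the median in both sets. The cause was not tested beyond these constructions.

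Without 1 column, list medians of share ran from -0.12 to 0.14 for maturation, -0.24 to -0.0538 for progesterone signalling, -0.17 to -0.0052 for polyadenylation control, -0.26 to -0.0942 for the large ribosomal subunit, -0.11 to 0.16 for initiation factors, 0.0086 to 0.52 for histones and 0.0073 to 0.30 for kinesins and tubulins. Medians of level ran from -0.18 to 0.14 for maturation, -0.0231 to 0.0623 for progesterone signalling, -0.022 to 0.0497 for polyadenylation control, -0.42 to -0.21 for the mitochondrial ribosome and 0.67 to 1.43 for the mitochondrial genome. Large subunit levels stayed between -0.70 and -0.23. With 2 columns per stage, unknown depth and a median standard error of 0.41 for a share, calls of single genes are limited.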

Other observations

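Shares of the message for the splicing factor srsf5.L were 0.613 in x and 0.443 in y at PG90, against 0.400 and 0.379 at stage VI, without overlap. Splicing factors as a list gave 16 of 44 rows above the median change of share in both sets and 13 below. Of all genes, 27.3% lay on each side. For the exchange factor subunit eif2b1.L the share was 0.627 and 0.404 at PG90, against 0.243 and 0.373 at stage VI, mostly in x. The deubiquitinase gene usp8.L had a level of 202 in x and 58.6 in y at PG90, against 85.8 and 27.7 at stage VI. The cell cycle kinase copy cdk1.S had a level of 302 and 12.3 at PG90, against 110 and 18.9 at stage VI, with the sets in opposite directions. The ribosomal name rps7 stood apart from its list, with a level of 267 and 206 at PG90, against 262 and 43.0 at stage VI.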
